A study of Mus musculus with 4 samples.

Results

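Cholesterol and fatty acids are both built from cytosolic acetyl-CoA. The genes studied here are 26 named genes of these pathways in mouse colon: 6 of the mevalonate steps, 10 of the squalene and sterol steps, 3 regulators, 6 of fatty acid synthesis and the sterol carrier Stard4. They were listed by name. A gene was measured by the probe set annotated to that gene alone, and 24 of the 26 had one. Idi1 and Scd2 were covered only by probe sets annotated to several genes and have no value here. The array held 22180 genes in all, of which 12060 reached a log2 level of 4.67, the median of all genes, on at least 1 array. All 24 measured members lay above that level on each of the 4 arrays, so none entered through a single high group.

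There were 4 Affymetrix whole-transcript arrays, 1 each for normal colon and colon tumour of CDX2; Dmt1+/+/ApcF/+ mice (wild-type below) and of CDX2; Dmt1F/F/ApcF/+ mice (F/F below). All mice were C57BL/6, 3 months old, and carried CDX2, a label whose meaning the sources used here do not spell out, and ApcF/+, so that the controls also carry the Apc allele. Dmt1, with the symbol Slc11a2, encodes an iron importer. The series' design gives 7 animals for the wild-type and 4 for the F/F genotype. The sources used here do not say which animals each array stands for, or whether their RNA was combined. No group had a replicate. Each difference between 2 arrays is therefore a value without an error, and only a fit over all 4 arrays gave a test.

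In the sterol arm, acetyl-CoA is condensed to HMG-CoA, carried through mevalonate to farnesyl diphosphate, joined to squalene, closed into lanosterol and trimmed to cholesterol. In the fatty acid arm, citrate is split to acetyl-CoA, carboxylated to malonyl-CoA, assembled to palmitate, then elongated and desaturated. Transcription of both arms is driven by the SREBP factors, which INSIG proteins hold in the endoplasmic reticulum when sterols are plentiful. The intestine is known as a site of cholesterol synthesis, and in its epithelium the demand for membranes comes with constant renewal.

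SREBP factors act at sterol elements and E-boxes, usually beside the CCAAT box that NF-Y binds. The promoters of 4 members are shown for these letters, Hmgcs1 because it holds the full sterol element, Srebf2 because it holds its 8-letter form, and Insig1 and Fasn, chosen after their values were seen, because they stand apart in the results. They run from 250 bases before to 50 after the start site, from RefSeq on GRCm38.p6. Capitals mark matches, on either strand, to the sterol element TCACNCCAC, to its first 8 letters TCACNCCA (which lie inside every match of the longer form), to CCAAT and to the E-box CACGTG. Hmgcs1 is at chr13:119690101-119690400 on the plus strand, Srebf2 at chr15:82147019-82147318 on the plus strand, Insig1 at chr5:28071162-28071461 on the plus strand and Fasn at chr11:120824498-120824797 on the minus strand.
Hmgcs1: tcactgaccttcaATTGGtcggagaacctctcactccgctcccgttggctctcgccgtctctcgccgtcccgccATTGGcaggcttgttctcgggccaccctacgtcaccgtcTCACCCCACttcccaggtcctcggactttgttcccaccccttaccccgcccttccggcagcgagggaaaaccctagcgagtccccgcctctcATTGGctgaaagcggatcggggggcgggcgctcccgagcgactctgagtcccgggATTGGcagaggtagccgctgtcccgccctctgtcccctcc
Srebf2: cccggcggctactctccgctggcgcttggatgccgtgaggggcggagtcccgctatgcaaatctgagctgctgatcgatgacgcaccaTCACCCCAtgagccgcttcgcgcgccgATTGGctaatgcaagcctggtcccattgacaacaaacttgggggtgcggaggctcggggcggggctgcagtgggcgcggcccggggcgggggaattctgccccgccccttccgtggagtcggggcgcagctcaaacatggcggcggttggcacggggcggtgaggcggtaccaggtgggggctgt
Insig1: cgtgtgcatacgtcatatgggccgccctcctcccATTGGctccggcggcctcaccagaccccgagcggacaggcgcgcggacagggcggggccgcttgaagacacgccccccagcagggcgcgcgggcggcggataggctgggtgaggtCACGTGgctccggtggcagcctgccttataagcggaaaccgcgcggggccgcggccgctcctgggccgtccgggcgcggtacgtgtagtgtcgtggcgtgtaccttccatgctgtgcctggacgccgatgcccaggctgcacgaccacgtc
Fasn: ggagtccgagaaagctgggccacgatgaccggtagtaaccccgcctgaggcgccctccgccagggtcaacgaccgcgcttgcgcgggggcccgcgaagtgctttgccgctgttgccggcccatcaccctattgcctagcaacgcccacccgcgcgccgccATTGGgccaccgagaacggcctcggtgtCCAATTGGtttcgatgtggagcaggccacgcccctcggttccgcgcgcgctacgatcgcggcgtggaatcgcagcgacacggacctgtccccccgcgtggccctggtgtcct

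A promoter was found for 20 of the 26 members, 25 promoters in all, since some genes have several start sites. The entries for Fdps, Fdft1, Sqle, Scd1, Scd2 and Stard4 were missing. Hmgcs1 held the full sterol element, from position -137 relative to the start site, and it was the only member to do so. Across all 32851 mouse promoters of this length, 1.24% held it. The 8-letter form was also present in Srebf2, from position -162, against 4.36% of all promoters. CCAAT was the common feature: 19 of 25 member promoters (76.0%) held it, against 37.4% of all promoters, and Hmgcs1 held 4 copies. In Fasn, 2 of its 3 matches overlap each other on opposite strands. CACGTG was present in 4 of 25 member promoters (16.0%), those of Dhcr7, Hsd17b7, Insig1 and Sc5d, against 7.15% of all. A match describes the letters only and shows no binding, and a missing match says only that these letters are not in this window.

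**Figure D1:**
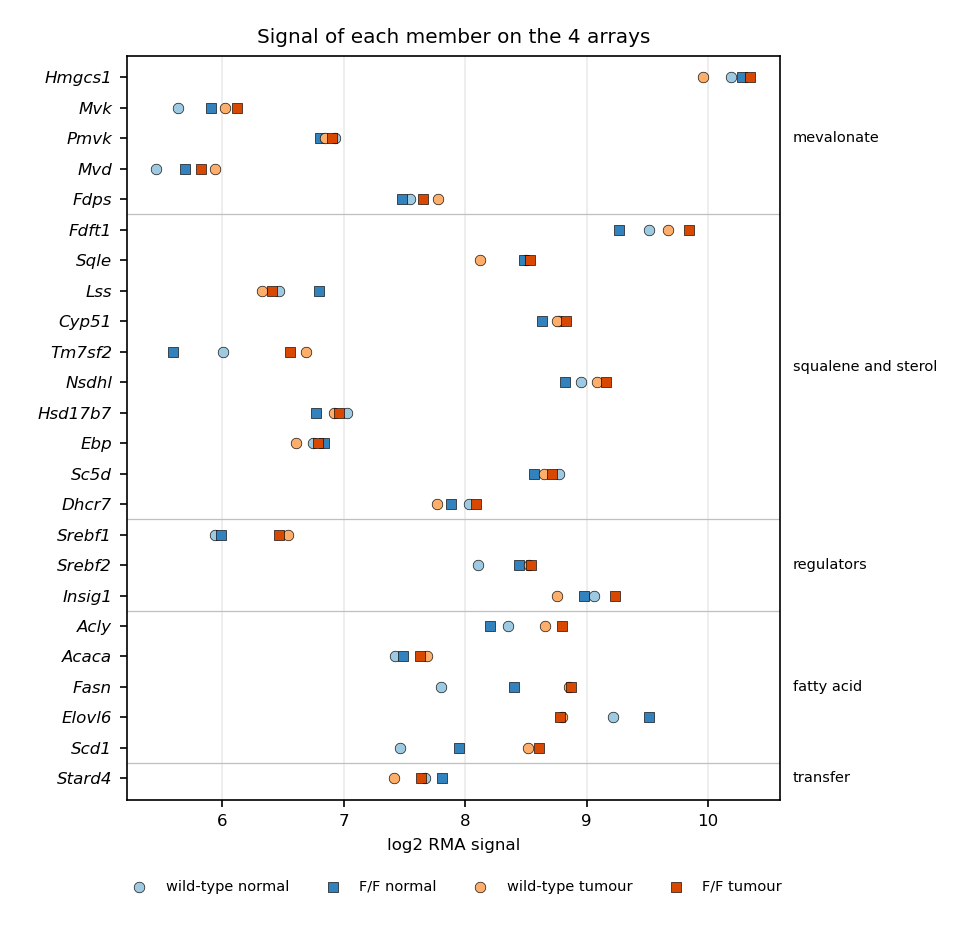
Log2 RMA signal of the 24 measured members (rows, grouped by role) on the 4 arrays; circles are wild-type, squares F/F, blue normal colon and orange tumour. The 4 points of most genes lie close together, while Fasn and Scd1 have their lowest point, 7.80 and 7.47, on the wild-type normal array.

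The levels of most members were close on all 4 arrays. Between wild-type tumour and wild-type normal colon, 20 of 24 members differed by less than 0.5 on the log2 scale, as did 63.4% of all 12060 genes. In F/F mice 19 of 24 did, against 68.9% of all genes. Markers gave a coarse look at the labelled tissue: all 8 colonocyte markers examined were above the level of 4.67 on each array. The epithelial gene Epcam stood between 10.88 and 10.99. Such levels do not tell tumour from normal colon or separate parts of the colon. Markers of position differed between the normal arrays, as given below.

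The first question of the design is which synthesis genes separate tumour from normal colon. Scd1 and Tm7sf2 rose and Elovl6 fell in the fit over both genotypes. The other 21 members did not pass. The fit was limma's additive model of tissue and genotype with Benjamini-Hochberg adjustment over 12060 genes, in which 11.0% of all genes rose and 8.23% fell. Of all calls 57.3% rose, against 46.4% after cyclic loess. Of the 24 members 2 rose and 1 fell, shares no larger than among all genes. Over the members the median fitted difference was 0.14, against 0.07 over all genes. In this bulk tissue, fewer cells of a type and less RNA per cell cannot be told apart.

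Among the fatty acid genes, Scd1, the desaturase that makes oleate from stearate, was at 7.47 and 7.95 in normal colon of wild-type and F/F mice, and at 8.52 and 8.61 in their tumours. Both tumour arrays lay above both normal arrays. It rose by 0.86 in the fit (SE 0.14, limma adjusted p = 0.0288). Fasn, the synthase that assembles palmitate, was at 7.80 and 8.40 in normal colon of wild-type and F/F mice, and at 8.86 and 8.87 in their tumours. The tumour arrays were again above the normal arrays and nearly equal to each other, but the fitted difference of 0.76 (SE 0.18) missed the threshold with a limma adjusted p of 0.0507. It passed after centring each array on its median (limma adjusted p = 0.0255), under quantile normalization (0.0429) and when a gene's probe sets were averaged (0.0440). Fasn did not pass after cyclic loess (limma adjusted p = 0.0565) or without the filter on level (0.0588). Nor did it pass without the trend in limma's prior (0.0756) or without the genotype term (0.06825).

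Elovl6, which elongates palmitate to stearate and so works between Fasn and Scd1, went the other way. It was at 9.22 and 9.51 in normal colon of wild-type and F/F mice and at 8.79 and 8.78 in their tumours, both tumours below both normal arrays. It fell by 0.58 (SE 0.13, limma adjusted p = 0.0467). The call was lost in a fit without the filter on level (adjusted p = 0.0565), without the trend in the prior (adjusted p = 0.0771) and without the genotype term (adjusted p = 0.0515).

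Acly, which splits citrate to acetyl-CoA, was at 8.35 and 8.21 in normal colon of wild-type and F/F mice and at 8.65 and 8.80 in their tumours, the order used from here on. Its fitted difference was 0.45 (SE 0.13, limma adjusted p = 0.0769). Acaca, which makes malonyl-CoA, was at 7.42, 7.49, 7.69 and 7.63 in the same order. The fitted difference for Acaca was 0.20 (limma adjusted p = 0.278). For Acly and Acaca too the tumour arrays lay above the normal arrays. So 4 of the 5 measured fatty acid members were higher in tumour in each genotype, but of these 4 Scd1 alone passed. Of all genes 56.7% were higher in tumour in wild-type mice and 53.3% in F/F mice, so a count of 4 among 5 genes sets the arm little apart.

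Among the squalene and sterol genes, Tm7sf2, a sterol reductase that removes a double bond from the ring system, was at 6.01 and 5.59 in normal colon and at 6.69 and 6.56 in tumour. Both tumours lay above both normal arrays. Tm7sf2 rose by 0.82 (SE 0.14, limma adjusted p = 0.0299). It was the only call among the 15 measured mevalonate and sterol genes, whose median fitted difference was 0.04. Fdft1, squalene synthase, was at 9.51, 9.27, 9.67 and 9.84 on the 4 arrays. Its fitted difference of 0.37 did not pass (SE 0.14, limma adjusted p = 0.139). Lss, the cyclase that forms lanosterol, was lower in tumour, at 6.47 and 6.80 in normal colon and at 6.32 and 6.41 in tumour. Its fitted difference was -0.27 (SE 0.13, limma adjusted p = 0.219).

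**Figure D2:**
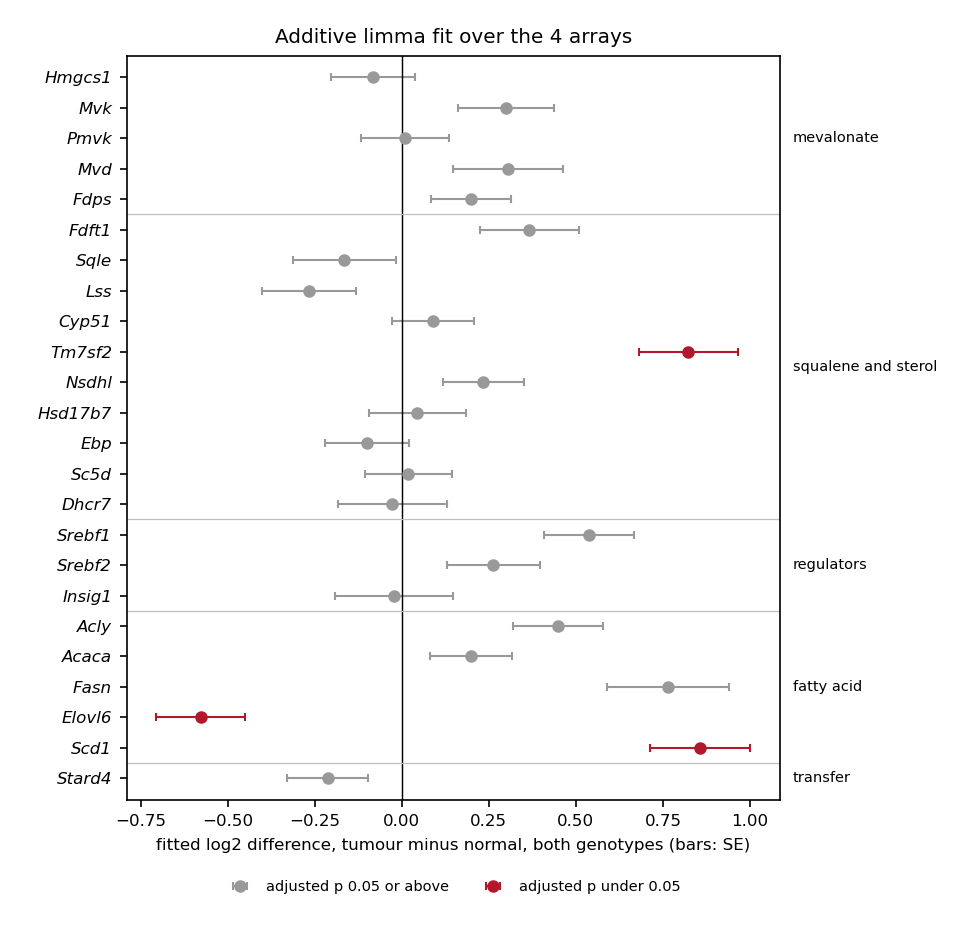
Fitted log2 difference of tumour minus normal over both genotypes for each member (rows), with its SE as bars, from the additive limma model; red marks adjusted p under 0.05. Scd1 (0.86) and Tm7sf2 (0.82) stand to the right and Elovl6 (-0.58) to the left, while most sterol genes lie near 0.

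The remaining sterol steps showed small fitted differences. Nsdhl, a decarboxylating dehydrogenase of sterol intermediates, was at 0.23, and the lanosterol demethylase Cyp51 at 0.09. The ketoreductase Hsd17b7 and the desaturase Sc5d were at 0.04 and 0.02, and turned to -0.047 and -0.042 after cyclic loess. The epoxidase Sqle (-0.17), the isomerase Ebp (-0.10) and the final reductase Dhcr7 (-0.03) were lower, and limma adjusted p-values of these 7 genes ran from 0.212 for Nsdhl to 0.925 for Sc5d. In the mevalonate steps, the kinase Mvk (0.30), the decarboxylase Mvd (0.30) and farnesyl diphosphate synthase, Fdps (0.20), were higher in both tumour arrays than in the normal array of their genotype. The HMG-CoA synthase Hmgcs1 was at -0.08 and the phosphomevalonate kinase Pmvk at 0.01, the latter at -0.084 after cyclic loess. None of these 5 passed, the lowest limma adjusted p being 0.188 for Mvk. Stard4, which carries cholesterol between membranes, was at 7.67, 7.81, 7.41 and 7.64, and its fitted difference was -0.21 (limma adjusted p = 0.243).

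Of the regulators, Srebf1, whose product drives fatty acid genes, was at 5.94 and 5.99 in normal colon and at 6.54 and 6.47 in tumour. The tumours lay above the normal arrays, and the fitted difference of 0.54 (SE 0.13) missed the threshold with a limma adjusted p of 0.0542. It passed in a fit without the genotype term (adjusted p = 0.0486). Srebf2, whose product drives sterol genes, was at 8.10, 8.44, 8.53 and 8.54, with the wild-type normal array lowest, and its fitted difference was 0.26 (SE 0.13, limma adjusted p = 0.221). Insig1, the retention factor that is itself an SREBP target, was at 9.06, 8.98, 8.76 and 9.24. The wild-type tumour was lowest and the F/F tumour highest, and the fitted difference over both genotypes was -0.02 (limma adjusted p = 0.932).

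With 1 array left out, an alternative chosen after seeing the data in which tissue is the only term, none of the 3 member calls passed, whichever of the 4 arrays was dropped, the normal or tumour array of either genotype. Adjusted p-values then ran from 0.0869 to 0.144 for Scd1, from 0.0554 to 0.183 for Tm7sf2 and from 0.0686 to 0.187 for Elovl6, with the directions kept. Of all 2323 genes called with 4 arrays, 1407 were still called without the F/F tumour, 447 without the wild-type normal, 151 without the wild-type tumour and 49 without the F/F normal array.

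**Figure D3:**
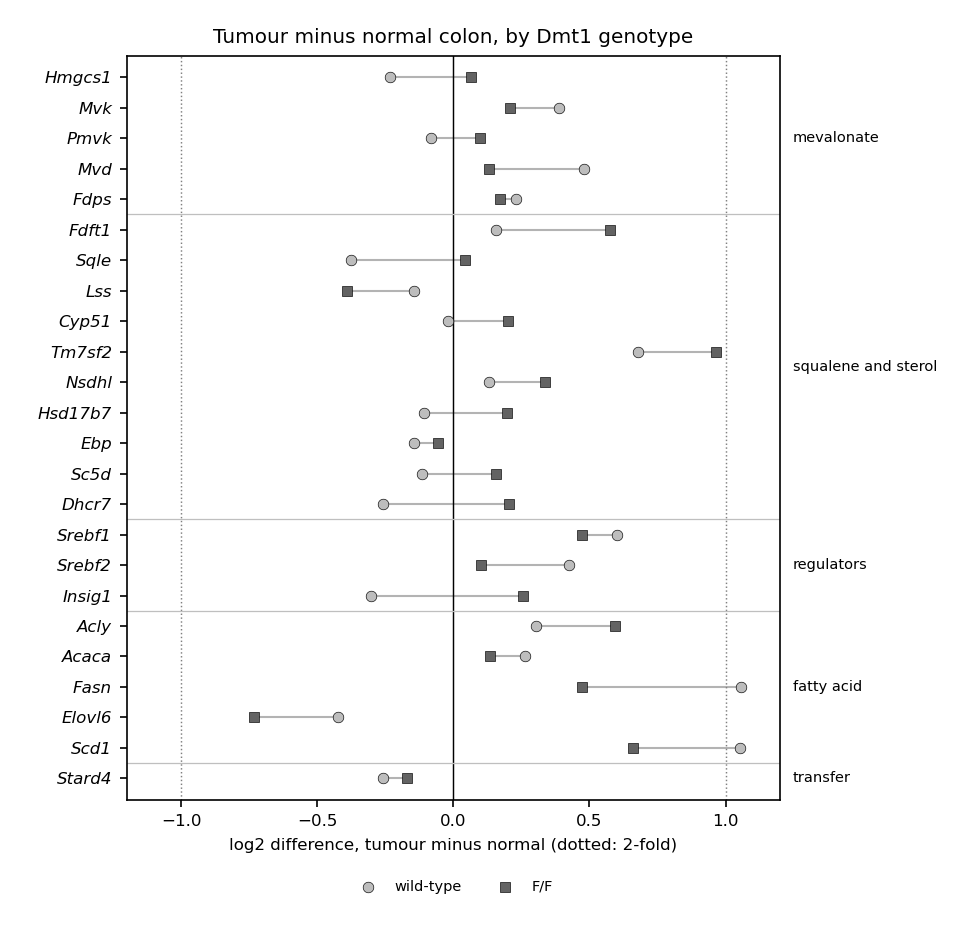
Log2 difference of tumour minus normal colon for each member (rows), wild-type as circles and F/F as squares, with dotted lines at 2-fold. Fasn and Scd1 reach the line in wild-type mice only, and 8 members lie on opposite sides of 0 in the 2 genotypes; no replicate supports any point.

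By genotype, 2 of 24 members were higher by 2-fold or more in wild-type tumour than in wild-type normal colon, Fasn by a log2 difference of 1.06 and Scd1 by 1.05, where 6.56% of all genes were. After cyclic loess these differences were 0.98 and 0.97, under 2-fold. None was lower by that much, against 5.31% of all genes. In F/F mice no member reached 2-fold in either direction, where 5.98% of all genes were higher and 3.81% lower. Tm7sf2 came nearest, at 0.97, and Fasn and Scd1 were at 0.47 and 0.66. The smaller values for Fasn and Scd1 go with higher normal levels, since their 2 tumour arrays differed by 0.02 and 0.09. With the wild-type normal array as the baseline for the F/F tumour, 2 members, Fasn and Scd1, were higher by 2-fold or more, where 4.00% of all genes were. With the F/F normal array as the baseline for the wild-type tumour 1 was, Tm7sf2, where 8.47% of all genes were.

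Fewer sterol genes were higher in tumour in wild-type than in F/F mice. In wild-type mice 6 of the 15 mevalonate and sterol genes were higher in tumour, with a median of -0.08, where 56.7% of all genes were higher. In F/F mice 13 of 15 were higher in tumour, with a median of 0.17, where 53.3% of all genes were. Each count uses the normal array of its own genotype. Of the 15 genes 8 had their lowest level in F/F normal colon (53.3%), against 29.6% of all genes. The count in F/F mice therefore rests on their normal array as well as on their tumour array. Sqle differed by -0.38 in wild-type and 0.04 in F/F mice. Hmgcs1 differed by -0.23 and 0.06, Dhcr7 by -0.26 and 0.20, and Insig1 by -0.30 and 0.26. These 4 genes had their lowest level in the wild-type tumour and their highest in the F/F tumour. With centring, quantile or cyclic loess normalization 6 of 15 were higher in wild-type tumour and 11, 12 and 12 of 15 in F/F tumour. The difference between genotypes was not tested, since it is the only residual of the fit.

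The other question is what the Dmt1 genotype changes in these genes. Slc11a2 itself was at 6.51 and 6.64 in wild-type normal colon and tumour, and at 6.13 and 6.19 in the F/F arrays. No member passed for genotype over both tissues. Of all 12060 genes limma called 0, so that 0% rose and 0% fell, while 991 genes (8.22%) and 0 members had an unadjusted p under 0.05. The largest fitted differences among members were 0.31 for Fasn (SE 0.18, limma adjusted p = 0.692) and 0.28 for Scd1 (SE 0.14, limma adjusted p = 0.662), both higher in the F/F arrays, and -0.27 for Tm7sf2 (SE 0.14, limma adjusted p = 0.665). The error of this term comes from the tissue by genotype difference alone, and both tissues of a genotype may share animals. It therefore cannot be read as the spread between animals.

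In normal colon, no member differed by 2-fold in either direction between genotypes, where 0.713% of all genes were higher and 0.904% lower in F/F. The fatty acid genes Fasn (0.60) and Scd1 (0.48) were the furthest above 0, and 3.51% and 6.54% of all genes were as high or higher. Srebf2 (0.34), Lss (0.33) and Elovl6 (0.30) came next. Tm7sf2 was the furthest below, at -0.42, followed by Hsd17b7 (-0.26) and Fdft1 (-0.24). Of the 15 mevalonate and sterol genes 5 were higher in F/F normal colon, with a median of -0.13, where 56.3% of all genes were higher and the median of all genes was 0.04.

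In tumour, no member differed by 2-fold either, where 1.70% of all genes were higher and 0.506% lower in F/F. The furthest from 0 were all higher in F/F: Insig1 by 0.48, Sqle by 0.41, Hmgcs1 by 0.39 and Dhcr7 by 0.32. All belong to the sterol arm or its control, as do most of the 24 members, of which 15 are mevalonate or sterol genes and 3 regulators. A difference as high or higher was seen for 7.73%, 9.77%, 10.2% and 13.2% of all genes. Stard4 (0.23), Ebp (0.18) and Fdft1 (0.18) followed. Of the 15 mevalonate and sterol genes 12 were higher in the F/F tumour, with a median of 0.08, where 46.2% of all genes were higher and the median of all genes was -0.02. The 3 that were lower were Tm7sf2 (-0.13), Fdps (-0.12) and Mvd (-0.11). The fatty acid genes were nearly level between the tumours, from -0.06 for Acaca to 0.15 for Acly.

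**Figure D4:**
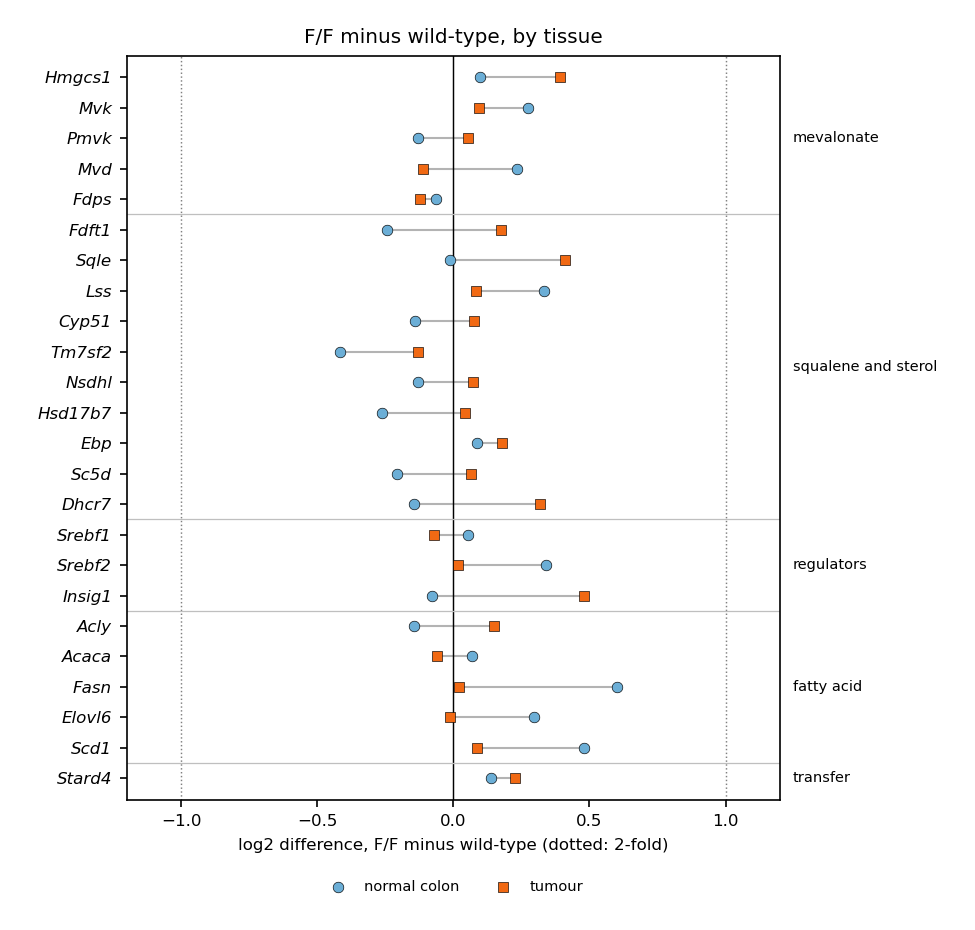
Log2 difference of F/F minus wild-type for each member (rows), normal colon as circles and tumour as squares, with dotted lines at 2-fold. Fasn and Scd1 are furthest right in normal colon (0.60 and 0.48), Insig1, Sqle and Hmgcs1 in tumour (0.48, 0.41 and 0.39); no replicate supports any point.

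Over the 4 arrays, 12 of 24 members had their highest level in the F/F tumour, as did 15.5% of all genes, and 1 member, Elovl6, had its lowest there, against 13.5% of all genes. The lowest level was spread over the other arrays, in shares close to those of all genes for the wild-type normal (29.2% against 27.3%) and tumour (29.2% against 29.6%) and of 37.5% against 29.6% for the F/F normal array. Srebf1, Srebf2, Mvk, Mvd, Acaca, Fasn and Scd1 were lowest in wild-type normal colon, Hmgcs1, Sqle, Lss, Ebp, Dhcr7, Insig1 and Stard4 in the wild-type tumour, and 9 further members in F/F normal colon.

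Other genes of lipid synthesis and handling were read from 7 further lists. Of 66 genes 53 had a single-gene probe set and 51 of these reached the level. The 13 without such a probe set were not analysed here. In the fit over both genotypes 5 of the 51 rose and 6 fell in tumour, shares near the 11.0% and 8.23% of all genes, and none passed for genotype. Of the 51, 5 lay below the level on some array. Among 8 genes of sterol efflux and its nuclear receptor LXR, 3 rose and none fell. The cholesterol exporter Abca1 was at 5.61 and 5.27 in normal colon and at 7.70 and 7.33 in tumour, and rose by 2.07 (SE 0.12, limma adjusted p = 0.00524). The exporter Abcg1 rose by 0.97 (SE 0.16, limma adjusted p = 0.0265), and Mylip, a ligase that marks lipoprotein receptors for degradation, rose by 0.73 (SE 0.13, limma adjusted p = 0.0300).

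Among 9 genes of SREBP processing, 2 fell and none rose. Erlin1, a membrane protein of the endoplasmic reticulum that binds cholesterol, fell by 1.02 (SE 0.12, limma adjusted p = 0.0157), and Insig2 fell by 0.60 (SE 0.12, limma adjusted p = 0.0375). Both were lower in tumour of each genotype, whereas Insig1 was lower in wild-type and higher in F/F tumour. Of 5 genes of sterol uptake and storage, 1, the lysosomal lipase Lipa, fell by 0.60 (SE 0.12, limma adjusted p = 0.0408), and none rose. Of 9 genes that supply acetyl-CoA, malonyl-CoA or NADPH or control that supply, 2 fell and none rose. The malic enzyme Me1, a source of NADPH, fell by 1.60 (SE 0.23, limma adjusted p = 0.0216) and the carboxylase Acacb, which makes malonyl-CoA at mitochondria, by a fitted 1.13 (SE 0.19, limma adjusted p = 0.0289). Acacb was at 5.09 and 5.64 in normal colon and below the level, at 4.08 and 4.38, in tumour, so it was kept only through the normal arrays and the size of its fall is not exact. Among 8 genes of elongation, desaturation and activation, 2 rose and none fell: the desaturase Fads1 by 1.21 (SE 0.12, limma adjusted p = 0.0122) and the acyl-CoA synthetase Acsl4 by 0.82 (SE 0.12, limma adjusted p = 0.0232). In glycerolipid synthesis the phosphatidate phosphatase Lpin2 fell by 1.53 (SE 0.18, limma adjusted p = 0.0167), 1 of 7 genes, and none rose. None of 5 other sterol enzymes passed. Msmo1, the sterol methyl oxidase, had a fitted difference of -0.28 (limma adjusted p = 0.370) and Idi2, an isomerase, -0.24 (limma adjusted p = 0.515). Of these 11 calls, 5 passed without the F/F tumour, 3 without the wild-type normal, 1 (Abca1) without the wild-type tumour and 0 without the F/F normal array. Insig2 was also lost without the filter on level (limma adjusted p = 0.0545), without the trend (0.0558) and without the genotype term (0.0579), as was Lipa (0.0512, 0.0651 and 0.0990). Erlin1 was lost without the genotype term (limma adjusted p = 0.0982).

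Msmo1 was at 8.20 and 7.88 in normal colon and at 7.57 and 7.96 in tumour. It was lowest in the wild-type tumour, as were 29.6% of all genes. Of the same list Idi2 was also lowest there, at 4.54 and below the level, while Lbr, Ggps1 and Erg28 were not. Acss2, which makes acetyl-CoA from acetate and was chosen after its values were seen, was at 7.74, 7.23, 6.76 and 7.51, also lowest in the wild-type tumour, and the F/F tumour was above it by 0.75. In F/F against wild-type normal colon 2 of the 51 genes were higher by 2-fold or more, where 0.713% of all genes were. Both were named after their values were seen. They were Thrsp, a promoter of fatty acid synthesis in fat and liver, by 1.39, and the triglyceride enzyme Dgat2, by 1.03. Thrsp was at 4.70 in wild-type normal colon, close to the level of 4.67, and at 6.09 in F/F normal colon. It was below the level in both tumours, so the size of its difference is not exact.

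**Figure D5:**
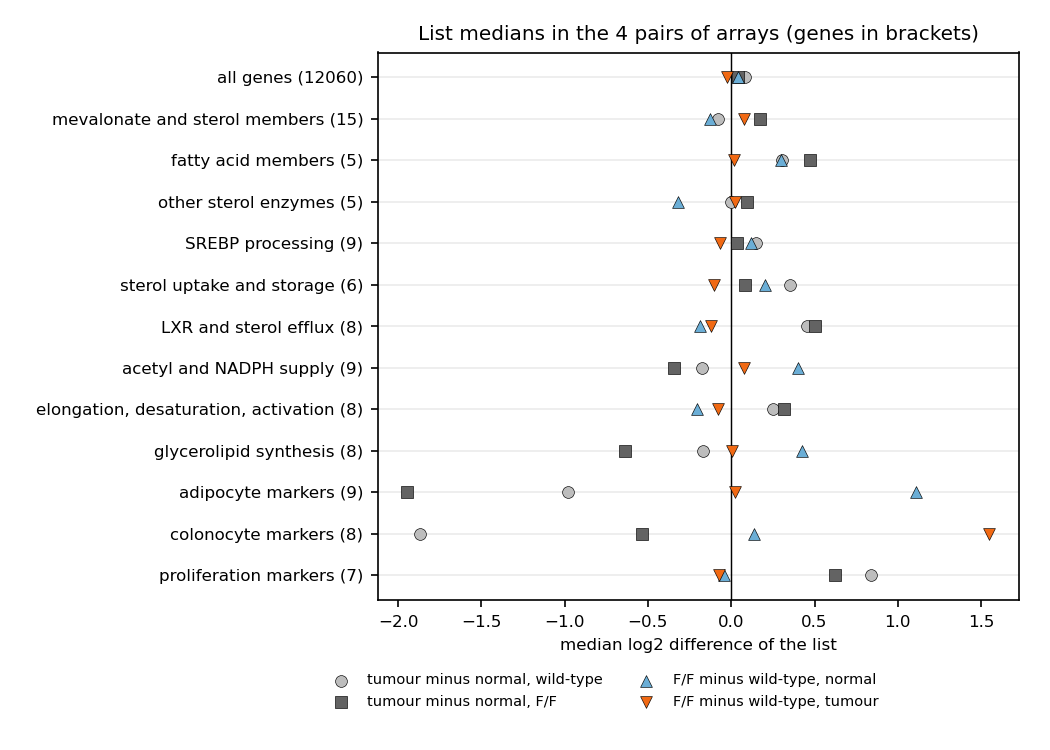
Median log2 difference of each gene list (rows, number of genes in brackets) in the 4 pairs of arrays, marked by shape and colour. All measured genes of a list are used, also those below the level, except for the 12060 of all genes. The member lists stay within 0.5 of 0, while adipocyte markers reach 1.11 in F/F against wild-type normal colon and colonocyte markers 1.55 in F/F against wild-type tumour.

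Markers of other cells and of position moved with these arrays. Of 9 adipocyte markers 5 and 7 lay above the level of 4.67 in normal colon of wild-type and F/F mice and 2 and 4 in their tumours, and the log2 of their summed signal was 9.92, 10.97, 8.19 and 8.62. Pparg was the highest of the 9 on every array, at 9.06 and 9.53 in normal colon and at 7.06 and 7.58 in tumour. It thus has the largest share of that sum, so the sum cannot be read as a measure of fat cells alone. Adipoq, a hormone of fat cells, was at or below 4.41 on every array, and Plin1, Lipe and Lep at or below 4.92. Fabp4, a fatty acid carrier of fat cells, was with Pparg 1 of the 2 markers above the level on all 4 arrays. It was at 7.18 and 8.54 in normal colon and at 5.41 and 6.28 in tumour. In the higher signal in F/F normal colon these markers stand beside Fasn, Scd1, Elovl6, Thrsp and Dgat2. Srebf2 (0.34) and Lss (0.33), which are not fatty acid genes, were also higher there. The fatty acid members Acaca (0.07) and Acly (-0.14) were not clearly higher. In the lower signal in both tumours the adipocyte markers run with Elovl6, Me1, Acacb, Lpin2, Erlin1, Insig2 and Lipa. All of these genes were likewise highest in F/F normal colon. Fasn and Scd1 went the opposite way in tumour. Colonocyte markers, all 8 above the level on every array, had medians of -1.87 in wild-type tumour against normal colon, -0.54 in F/F mice and 1.55 in F/F against wild-type tumour, beside the higher Insig1, Sqle, Hmgcs1 and Dhcr7 in that pair. The log2 of their summed signal was 14.20 and 14.32 in normal colon and 13.05 and 13.87 in tumour. Of 7 proliferation markers 5 rose in tumour. Markers of blood and wall cells also differed between the arrays. Of 5 B cell markers all lay above the level in F/F tumour and 2 in wild-type tumour, and the log2 of their summed signal was 9.31 against 7.29. Of 4 neutrophil markers 1 lay above it in F/F tumour, all in wild-type tumour and none in normal colon, so that their difference between tumours has no exact size. Smooth muscle and goblet cell markers were above the level on every array. Their medians in F/F against wild-type tumour were 0.69 and 0.56, and the 5 smooth muscle markers had medians of -2.15 and -0.61 in tumour against normal colon of wild-type and F/F mice. Of 6 macrophage markers 2 rose and none fell in tumour, of 6 general epithelial markers 1 fell, and neither of 2 measured glial markers reached the level. Of 3 squamous markers 1, Sprr1a, fell. Krt14 of that list went the other way without passing, by 2.24 in wild-type and 0.85 in F/F mice, from below the level in normal colon. Of 5 markers of distal position 4 lay above the level in wild-type and 1 in F/F normal colon, and all in both tumours. The log2 summed signal of 4 proximal markers was 8.53 and 10.06 in normal colon and 5.80 and 6.09 in tumour. The part of fat, colonocytes, dividing, blood and wall cells and position in the members' differences was not tested.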

How the data were processed

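The deposited table holds log2 signals, 1 per probe set and array (41345 probe sets), which the authors computed by RMA with oligo (per the submitters' processing notes; versions are not given in the sources used here). Per the labels' protocols, 400 ng of Trizol-extracted total RNA was labelled with biotin. RMA includes quantile normalization of probes, which removes differences in total signal. It makes no detection calls. The number of arrays limits the precision. The table had 0 columns from other samples.

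Genes were assigned by the platform's annotation of probe sets: 23521 had 1 gene, 1814 several and 16010 were unnamed. Gene IDs of 23328 matched the RefSeq table of GRCm38.p6. The probe set with the highest mean stood for a gene, and genes reaching log2 4.67 on any array were kept (12060). The additive limma fit (version 3.58.1, R 4.3.3) had 1 residual degree of freedom, 3.4 prior degrees of freedom and a trend, and was tested on simulated data. Fold calls used a log2 difference of 1. Alternatives covered normalization, probe set, filter, model and baseline. Members and lists were chosen with earlier results of these data known. Every member is named, and of each other list the genes past adjusted p 0.05 where 4 or fewer, otherwise the 3 largest, and where none passed the 2 largest. This rule was applied to the pathway lists, and departed from for marker lists, which are given by counts and medians. The planned protein sequences of Scd1 and Scd2 were not used here. Adjusted p-values stand for these 4 arrays and cannot be read as measuring the spread between animals.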

Additional observations from a re-analysis of the deposited data

Results flagged for a closer look

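Members whose difference had opposite signs in the 2 genotypes, or in the 2 tissues, are given here by the change of tumour minus normal in F/F mice less that in wild-type mice, on the log2 scale. This difference was not tested, each sign rests on 1 pair of arrays, and many of the differences are near 0. The tumour difference changed sign for 8 of 24 members, against 21.7% of all genes, and in each case it was below 0 in wild-type and above 0 in F/F mice. The change was 0.56 for Insig1, 0.46 for Dhcr7, 0.42 for Sqle, 0.31 for Hsd17b7, 0.30 for Hmgcs1, 0.27 for Sc5d, 0.22 for Cyp51 and 0.18 for Pmvk. The genotype difference changed sign between normal colon and tumour for 14 of 24 members, against 44.5% of all genes. Beside 7 of the genes above, Hmgcs1 being higher in F/F in both tissues, these were Fdft1 with a change of 0.42, Acly with 0.29 and Nsdhl with 0.20, which were lower in F/F normal colon and higher in F/F tumour, and Mvd with -0.35, Elovl6 with -0.31, Acaca with -0.13 and Srebf1 with -0.13, which were the reverse.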

How the results depend on the processing

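Scd1 and Tm7sf2 passed for tumour against normal under all 7 alternatives listed at the outset that keep all 4 arrays. The count of members that rose was 2 or 3, as Fasn or Srebf1 joined under some. The count that fell was 0 without the filter on level, without the trend and without the genotype term, as Elovl6 was then lost. With 1 array left out, 0 to 0 members rose and 0 to 0 fell, an alternative added after seeing the data, with 3 arrays and no genotype term. For genotype, 0 members passed under every setting run. Members higher by 2-fold or more in wild-type tumour numbered 0 after cyclic loess and 1 on the F/F normal baseline, and in F/F tumour 2 on the wild-type normal baseline. Among fitted member values signs turned for these, none of them called. For tumour minus normal, centring, quantile and cyclic loess gave -0.047, -0.069 and -0.084 for Pmvk and -0.011, -0.032 and -0.047 for Hsd17b7, and centring and cyclic loess gave -0.036 and -0.042 for Sc5d. For F/F minus wild-type, the same 3 settings gave 0.0075, 0.0083 and 0.0065 for Srebf1, and quantile normalization gave -0.0078 for Acly and -0.0020 for Acaca. Of all calls, 57.3% rose as reported and 46.4% after cyclic loess. No paired analysis was possible because the labels give no replicate numbers and each group has 1 array. Precision is limited by having 4 arrays in all.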
